A study of Mus musculus with 6 samples.

Results

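Transcripts of skeletal muscle were measured in 6 RNA-seq libraries of mouse liver, as the counts of 10 genes among the 40803 mouse genes listed. The genes were *Acta1*, *Tnnt3*, *Tnnc2*, *Myh4*, *Mylpf*, *Atp2a1*, *Pvalb*, *Ckm*, *Mb* and *Eef1a2*. They were taken by their symbols, and the set was chosen after muscle genes had been seen lower in the Hnf1aos1 knockdown libraries of this series. The genes were thus selected on their fold changes between the groups, and their values in that contrast are given as a description. Where calls from the fit over all genes are counted for them, the share over all genes stands beside the count and no p of a single gene is given. For the other fits the number of all genes called is given in the closing section. For counts of genes with an unadjusted p under 0.05 the share over all genes was not computed, so nothing is read from them. The question addressed was whether *Eef1a2*, the only gene of the 10 that does not code for a contractile, calcium-handling or energy protein of muscle, followed the 9 others from library to library, as it would if all 10 came with pieces of muscle tissue.

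C57BL6 male mice of about 6 weeks were injected through the tail vein with rAAV8, an adeno-associated virus vector with a preference for hepatocytes. In the rAAV8-Hnf1aos1 group (3 mice) the virus carried a short hairpin RNA against the liver lncRNA *Hnf1aos1*, and in the rAAV8-Scramble group (3 mice) it carried a scrambled hairpin. Both vectors drove the hairpin from the U6 promoter, which is not restricted to hepatocytes, and both carried the EGFP reporter. All mice were fed normally, and 4 weeks after injection blood was drawn by cardiac puncture and pieces of liver were frozen, each library being made from 1 mouse. The gene counts summed to between 14704746 and 19462398 per library. *Hnf1aos1*, the targeted gene, was measured at 512, 491 and 620 normalized counts in rAAV8-Scramble replicates 1, 2 and 3 and at 278, 258 and 433 in rAAV8-Hnf1aos1 replicates 1, 2 and 3, a log2 fold change of -0.74 (SE 0.195) with p = 0.1 in an exact two-sided permutation test, the smallest that 3 against 3 libraries can give. A normalized count is the raw count scaled to the same effective library size in all 6 libraries. *Alb*, which codes for the serum albumin made by hepatocytes, had at least 774045 raw counts in every library, as liver tissue would.

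Skeletal muscle fibres contract when myosin, in the thick filaments, pulls on actin, in the thin filaments. Calcium released from the sarcoplasmic reticulum opens the thin filament through the troponin complex and is then pumped back, and creatine kinase and glycolysis renew the ATP. Fast fibres use their own forms of most of these proteins, and hepatocytes are not known to make them. *Eef1a2* codes for a form of elongation factor eEF1A, which brings aminoacyl-tRNA to the ribosome, that replaces the common form *Eef1a1* in mature skeletal muscle, heart and neurons.

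As background, promoters are shown for a pair of filament genes (*Acta1*, *Myh4*), for *Ckm*, and for *Eef1a2*, which is also transcribed outside muscle. The sequences are RefSeq promoters of build GRCm38.p6, from 250 bases before to 50 bases after the annotated start, written 5′ to 3′ on the strand of the gene. Capitals mark the E-box CAGCTG, the TATA box TATAAA, the CArG box (the binding sequence of serum response factor) and the MEF2 site (bound by the MEF2 factors of muscle), wherever either strand matched. E-boxes are bound by the MyoD family of muscle factors among many others.
Acta1, chr8:123894726-123895025, minus strand: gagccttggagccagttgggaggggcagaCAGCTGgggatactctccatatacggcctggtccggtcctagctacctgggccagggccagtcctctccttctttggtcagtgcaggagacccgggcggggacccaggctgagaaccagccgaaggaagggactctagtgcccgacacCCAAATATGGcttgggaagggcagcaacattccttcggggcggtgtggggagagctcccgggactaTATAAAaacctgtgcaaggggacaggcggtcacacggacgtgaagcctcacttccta
Myh4, chr11:67237562-67237861, plus strand: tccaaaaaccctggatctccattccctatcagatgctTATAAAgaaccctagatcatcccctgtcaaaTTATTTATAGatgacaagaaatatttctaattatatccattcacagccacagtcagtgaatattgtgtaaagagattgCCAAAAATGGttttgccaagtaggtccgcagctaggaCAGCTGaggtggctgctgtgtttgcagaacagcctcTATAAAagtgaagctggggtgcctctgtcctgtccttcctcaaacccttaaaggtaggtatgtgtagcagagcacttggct
Ckm, chr7:19410844-19411143, plus strand: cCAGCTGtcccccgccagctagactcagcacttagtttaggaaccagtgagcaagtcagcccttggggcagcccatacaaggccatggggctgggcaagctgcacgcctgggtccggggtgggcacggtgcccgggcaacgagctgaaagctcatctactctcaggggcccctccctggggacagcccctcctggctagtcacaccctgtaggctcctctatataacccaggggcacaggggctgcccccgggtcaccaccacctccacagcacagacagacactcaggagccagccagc
Eef1a2, chr2:181156966-181157265, minus strand: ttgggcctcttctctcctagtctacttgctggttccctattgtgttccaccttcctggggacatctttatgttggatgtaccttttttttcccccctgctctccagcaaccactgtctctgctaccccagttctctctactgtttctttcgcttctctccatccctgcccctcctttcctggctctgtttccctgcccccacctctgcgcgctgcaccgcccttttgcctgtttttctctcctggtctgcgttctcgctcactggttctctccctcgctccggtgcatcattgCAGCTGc

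Of the 10 genes, 9 had a promoter entry, 12 promoters in all, and *Tnnt3* had none. CAGCTG was present in 8 of the 12 promoters, which belong to 7 of the 9 genes, and in 16.3% of all 32851 promoters of the same length. The looser E-box CANNTG, which contains CAGCTG, was present in 11 of the 12 and in 72.3% of all promoters. TATAAA matched in 2 of the 12 (*Acta1* and *Myh4*, 13.6% of all promoters), the CArG box in the same 2 (1.63%), and the MEF2 site in 2 (*Myh4* and *Pvalb*, 3.19%). Promoters of 1 gene can overlap each other, and 2 promoters of *Mb* do so and share the same CAGCTG, which is counted in both. In *Myh4* the MEF2 site overlaps a TATAAA on the opposite strand. The promoter of *Eef1a2* held 1 CAGCTG, 43 bases after the start, and matched none of TATAAA, the CArG box and the MEF2 site. These matches are letters in a window and were not tested for binding.

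The thin filament was represented by 3 genes. *Acta1*, the actin of skeletal muscle, was measured at 267, 1101 and 671 normalized counts in rAAV8-Scramble replicates 1, 2 and 3, and at 361, 307 and 125 in rAAV8-Hnf1aos1 replicates 1, 2 and 3 (means 680 ± 417 and 264 ± 124, SD, n = 3 each). Replicates 2 and 3 of rAAV8-Scramble were above every knockdown library, while replicate 1 lay below 2 of the 3 knockdown libraries. *Tnnt3*, the fast troponin T that ties the troponin complex to tropomyosin, was at 91.3, 236 and 166 normalized counts in rAAV8-Scramble and at 85.8, 62.7 and 28.1 in rAAV8-Hnf1aos1, in the same order of replicates. Its groups did not overlap, but rAAV8-Scramble replicate 1 was closer to the knockdown libraries than to the other libraries of its own group. *Tnnc2*, the fast troponin C that binds calcium, was at 19.5, 88.9 and 34.1 against 21.0, 27.6 and 7.25 normalized counts, and again the lowest rAAV8-Scramble library fell within the range of the knockdown group.

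The thick filament was represented by *Myh4* and *Mylpf*, which shared their highest and lowest libraries but not the order of the others. *Myh4*, the myosin heavy chain of the fastest (type IIB) fibres, was at 335, 1405 and 729 normalized counts in rAAV8-Scramble replicates 1, 2 and 3 and at 264, 342 and 192 in rAAV8-Hnf1aos1 (means 823 ± 541 and 266 ± 75.1, SD, n = 3 each). rAAV8-Hnf1aos1 replicate 2 was above rAAV8-Scramble replicate 1. *Mylpf*, the fast regulatory light chain of myosin, was at 13.3, 40.6 and 18.7 against 18.1, 7.60 and 5.43 normalized counts, which rested on 6 to 37 raw counts per library. Its groups overlapped through rAAV8-Hnf1aos1 replicate 1.

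Both calcium handling genes separated the groups by a narrow margin. *Atp2a1* codes for the calcium pump of fast fibres and was at 350, 1204 and 625 normalized counts in rAAV8-Scramble against 343, 338 and 149 in rAAV8-Hnf1aos1. The lowest rAAV8-Scramble library and the highest knockdown library, at 350 and 343 normalized counts, differed by less than the counting error of either. Their raw counts, 341 and 360, ran in the opposite order because the libraries differ in depth. *Pvalb*, parvalbumin, the calcium buffer of fast fibres and of some neurons, was at 30.8, 117 and 79.2 against 25.7, 27.6 and 17.2 normalized counts (means 75.8 ± 43.4 and 23.5 ± 5.53, SD, n = 3 each). All 3 knockdown libraries lay below the 3 others for this gene, again with rAAV8-Scramble replicate 1 nearest to them.

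Energy supply was represented by *Ckm* and *Mb*. *Ckm*, the muscle creatine kinase, was at 120, 313 and 187 normalized counts in rAAV8-Scramble and at 125, 87.4 and 42.6 in rAAV8-Hnf1aos1, and the groups overlapped through replicate 1 of each. *Mb*, the oxygen-binding myoglobin of oxidative fibres and heart, had the fewest counts of the set, at 3.08, 31.8 and 11 against 18.1, 9.50 and 2.72 normalized counts (3, 29 and 10 against 19, 10 and 3 raw counts). With so few counts its order between libraries was the least certain of the 10, and rAAV8-Hnf1aos1 replicate 1 was above 2 of the 3 rAAV8-Scramble libraries.

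*Eef1a2* was at 26.7, 65.9 and 31.9 normalized counts in rAAV8-Scramble replicates 1, 2 and 3 and at 16.2, 16.2 and 7.25 in rAAV8-Hnf1aos1 replicates 1, 2 and 3 (means 41.5 ± 21.3 and 13.2 ± 5.16, SD, n = 3 each). The raw counts behind these values were 26, 60, 29, 17, 17 and 8. The groups did not overlap, and the highest and lowest libraries were the same as for the contractile genes. From rAAV8-Hnf1aos1 replicate 3 to rAAV8-Scramble replicate 2 *Eef1a2* differed 9.09-fold, and the summed normalized counts of the 9 other genes differed 7.96-fold.

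**Figure D1:**
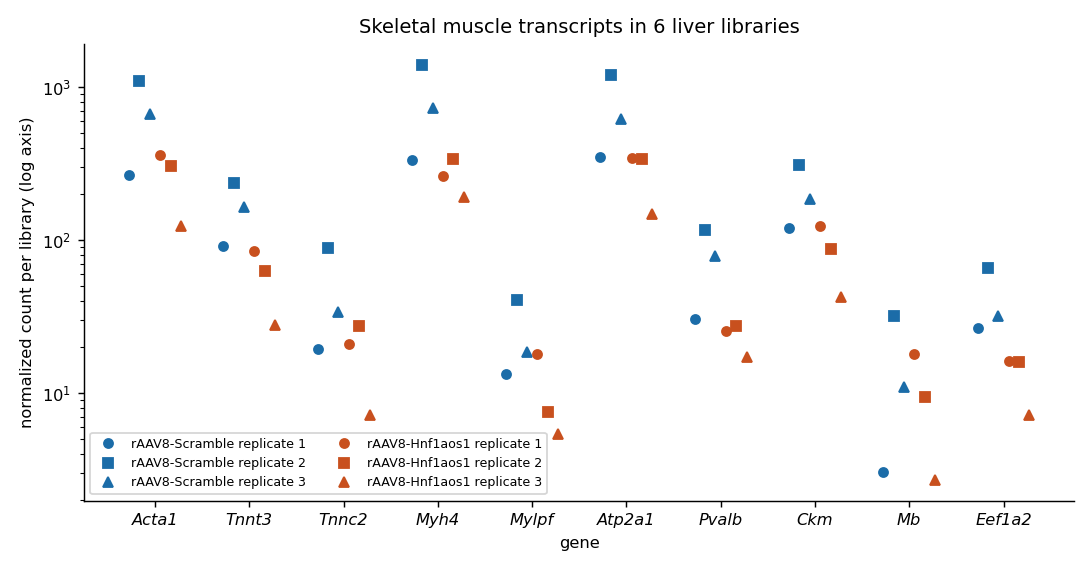
Normalized counts (log axis) of the 10 genes, 1 point per library, with rAAV8-Scramble in blue, rAAV8-Hnf1aos1 in orange and the replicate number given by the shape. For each gene the highest point is rAAV8-Scramble replicate 2 and the lowest is rAAV8-Hnf1aos1 replicate 3.

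All 10 genes were highest in rAAV8-Scramble replicate 2 and lowest in rAAV8-Hnf1aos1 replicate 3. That order was found in 433 (2.65%) of the 16327 genes that passed the filter on low counts, and all 10 genes of the set had passed it. Since the set was selected for being lower in the knockdown group, the count of 10 is part of its description. Summed over the 9 genes without *Eef1a2*, rAAV8-Scramble replicates 1, 2 and 3 held 1230, 4538 and 2521 normalized counts, and rAAV8-Hnf1aos1 replicates 1, 2 and 3 held 1263, 1210 and 570 (means 2763 ± 1667 and 1014 ± 386, SD, n = 3 each). rAAV8-Scramble replicate 1 was at 0.974 times rAAV8-Hnf1aos1 replicate 1. The spread within the rAAV8-Scramble group, 3.69-fold from replicate 1 to replicate 2, was thus larger than the 2.72-fold ratio of the group means. Without rAAV8-Scramble replicate 2 the ratio of the means was 1.85, and without both it and rAAV8-Hnf1aos1 replicate 3 it was 1.52. On the CPM scale the 9 genes summed to 72.5, 267 and 156 in rAAV8-Scramble and 73.5, 67.8 and 32.3 in rAAV8-Hnf1aos1, a small part of each library throughout. In bulk tissue, fewer cells of a type and less RNA per cell cannot be told apart.

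Within a library, the share of the 10 genes' counts that belongs to each gene does not depend on how libraries are scaled. *Eef1a2* made up 2.12% of the summed counts of the 10 genes in rAAV8-Scramble replicate 1 (exact Clopper-Pearson 95% interval 1.39 to 3.09%, which covers counting error only), 1.43% in replicate 2 (1.09 to 1.84%) and 1.25% in replicate 3 (0.84 to 1.79%). In rAAV8-Hnf1aos1 it made up 1.27% in replicate 1 (0.74 to 2.02%), 1.32% in replicate 2 (0.77 to 2.10%) and 1.26% in replicate 3 (0.54 to 2.46%). The group means were 1.60 ± 0.461% and 1.28 ± 0.0329% (SD, n = 3 each). The 5 libraries other than rAAV8-Scramble replicate 1 lay between 1.25 and 1.43%. The interval of that replicate overlapped those of the 5 others, which is not a comparison of the shares. Its value of 2.12% lay above the upper limits of rAAV8-Scramble replicates 2 and 3 and of rAAV8-Hnf1aos1 replicates 1 and 2. It lay within the interval of rAAV8-Hnf1aos1 replicate 3. The share of *Eef1a2* was not tested between the groups, and the widths of the intervals leave room for differences of about the size of the share itself.

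*Myh4*, *Atp2a1* and *Acta1* took the 3 largest shares in every library, in an order that differed between libraries. *Atp2a1* varied least, from 24.5 to 27.8%, and *Acta1* ranged from 21.2 to 28.3%. *Myh4* ranged from 20.7 to 33.3%, with both ends in the knockdown group (replicates 1 and 3). *Tnnt3* made up 4.87 to 7.27%, *Ckm* 6.80 to 9.77%, *Pvalb* 2.01 to 3.10%, *Tnnc2* 1.26 to 2.25% and *Mylpf* 0.620 to 1.42%. *Mb* moved most for its size, from 0.245% in rAAV8-Scramble replicate 1 to 1.42% in rAAV8-Hnf1aos1 replicate 1.

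**Figure D2:**
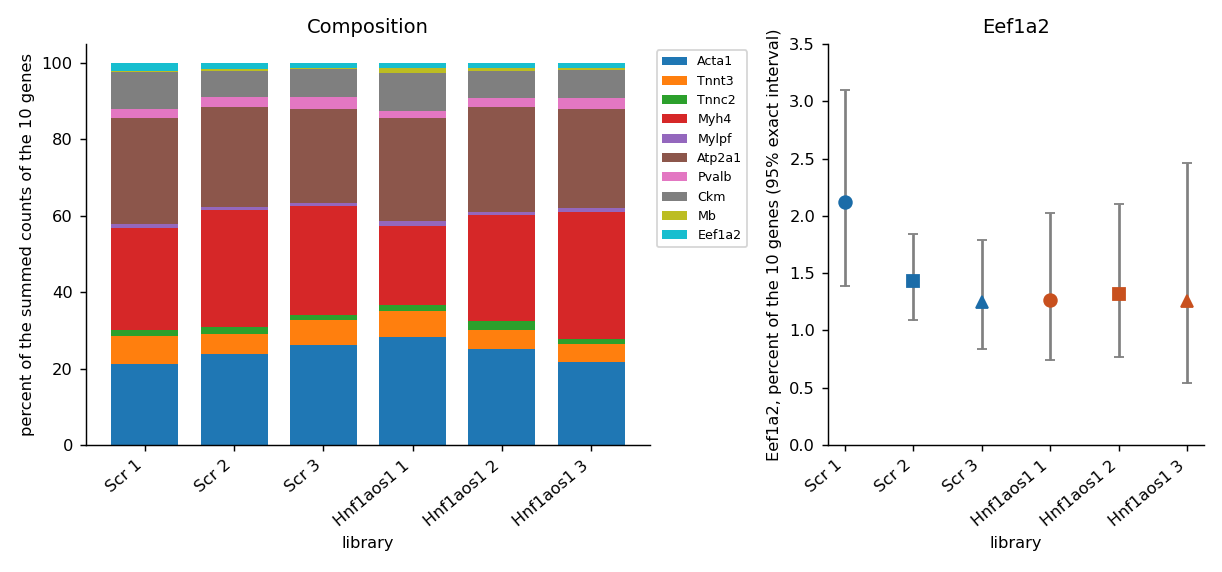
Left, percent of the summed raw counts of the 10 genes that each gene took in each library (Scr, rAAV8-Scramble; Hnf1aos1, rAAV8-Hnf1aos1; the number is the replicate). Right, the percent for *Eef1a2* with its exact 95% interval, where the 5 libraries other than rAAV8-Scramble replicate 1 lie between 1.25 and 1.43%.

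Likeness to the muscle genes was measured as the standard deviation over the 6 libraries of the log2 ratio between a gene and the summed CPM of the muscle genes, the gene itself and *Eef1a2* left out of the sum and 0.1 added. For *Eef1a2* it was 0.283, against 0.339 expected from its counting error alone and 0.991 for the log2 level of *Eef1a2* itself. The ratio of *Eef1a2* to the muscle genes thus varied by no more than its counting error, which is wide and could hide differences between libraries. *Eef1a2* was at 26.7 normalized counts in rAAV8-Scramble replicate 1 and at 16.2 in rAAV8-Hnf1aos1 replicate 1. The summed 9 muscle genes were at 1230 and 1263 in the same libraries. *Atp2a1* had the smallest value, 0.0977, followed by *Acta1* (0.206), *Pvalb* (0.241), *Ckm* (0.251), *Tnnt3* (0.253) and *Tnnc2* (0.275). *Myh4* was at 0.318 against a counting error of 0.0755, and *Acta1* against 0.0822, so these abundant genes varied relative to the others by more than counting. *Mylpf* (0.409) and *Mb* (0.706) were close to their counting errors of 0.419 and 0.575. Over the 16103 genes with a mean of at least 10 counts the median was 1.05, about the spread of the muscle sum itself (1.03), which is what a gene of steady level gives. Against the sum of all 9 muscle genes, *Eef1a2* stood at rank 17 of these genes with the muscle genes included. In that ranking, unlike in the values above, each muscle gene was part of the sum it was compared with. With the 9 muscle genes left out of the ranking, *Eef1a2* stood at rank 10. The same libraries chose the set, so both ranks are a description.

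Among genes outside the set, the 4 most like the summed 9 muscle genes were *Mybpc2* (0.164), the fast myosin-binding protein C, *Myot* (0.168), the Z-disc protein myotilin, *Ryr1* (0.192), the calcium release channel of skeletal muscle, and *Tnni2* (0.20), the fast troponin I. The 5 most like *Eef1a2* were *Mybpc2* (0.238), *Ryr1* (0.248), *Fhdc1* (0.254), *Pygm* (0.263), the muscle glycogen phosphorylase, and *Cyp17a1* (0.274), a steroid 17-hydroxylase. *Fhdc1* and *Cyp17a1* were neither in the set nor on the list of other skeletal muscle genes. Closeness to *Eef1a2* was thus not confined to the listed muscle genes. Of the 25 genes most like the muscle sum, 8 were of the set and 10 were of the list of other skeletal muscle genes described below. The 9 muscle genes are part of that sum, so the count of 8 was partly fixed in advance and nothing is read from it.

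Levels can be set beside each other between genes only per length, as TPM. On that scale *Acta1* was the highest of the set, with medians of 57.5 TPM in rAAV8-Scramble and 23.6 in rAAV8-Hnf1aos1, followed by *Atp2a1* at 24.4 and 11.9. *Tnnt3* (19.1 and 6.48), *Ckm* (17.8 and 7.46) and *Myh4* (16.3 and 5.62), each from another part of the fibre, were close to each other. *Pvalb* (10.2 and 3.17), *Tnnc2* (6.62 and 3.89), *Mylpf* (3.11 and 1.14) and *Mb* (1.18 and 0.916) were lower. *Eef1a2* had the lowest medians of the set, 0.538 and 0.244 TPM. Between each gene and the next in this order of medians the ranges of the rAAV8-Scramble libraries overlapped. Within single libraries *Tnnt3* and *Ckm*, *Ckm* and *Myh4*, *Pvalb* and *Tnnc2*, and *Mb* and *Eef1a2* changed places. The other neighbours, such as *Acta1* and *Atp2a1*, kept their order in every library.

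*Eef1a1*, the form of the factor found in most cells, was at 3412 to 3997 TPM over the 6 libraries, while *Eef1a2* was at 0.111 to 1.05 TPM. Per 1000 counts of *Eef1a1*, *Eef1a2* had 0.547, 1.20 and 0.703 counts in rAAV8-Scramble replicates 1, 2 and 3 and 0.291, 0.287 and 0.124 in rAAV8-Hnf1aos1. *Eef1a1* itself was at a log2 fold change of 0.20 (SE 0.111, edgeR adjusted p = 0.318). Both genes have similar coding sequences, and reads that could not be placed on 1 of them were not counted. Of the 6 genes of eEF1 and eEF2 examined, 1 was called, *Eef1b2*, the exchange factor of eEF1A, which rose by 0.36 (SE 0.0895, edgeR adjusted p = 0.0383), where 3.09% of all genes tested were called higher. *Eef1d* (0.14), *Eef1g* (0.12), *Eef1e1* (0.38) and *Eef2* (0.05) did not pass. No gene of the 6 was called with library totals alone, with the replicate block, or when any library other than rAAV8-Hnf1aos1 replicate 3 was left out, while library sizes from the spike-ins gave 4 calls.

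In the fit over all 16327 genes with edgeR's quasi-likelihood test and Benjamini-Hochberg adjustment at 0.05, the log2 fold changes of rAAV8-Hnf1aos1 over rAAV8-Scramble were below 0 for all 10 genes, with a median of -1.38. Over all genes tested the median was -0.0004. *Pvalb* stood at -1.68 (SE 0.459), *Eef1a2* at -1.64 (SE 0.429), *Myh4* at -1.63 (SE 0.617), *Tnnt3* at -1.48 (SE 0.490) and *Atp2a1* at -1.39 (SE 0.610). *Acta1* stood at -1.36 (SE 0.697), *Tnnc2* at -1.35 (SE 0.656), *Ckm* at -1.28 (SE 0.514), *Mylpf* at -1.21 (SE 0.535) and *Mb* at -0.59 (SE 0.836). *Eef1a2* differed from the median of the 9 muscle genes (-1.36) by less than its own standard error. Called lower was 1 of the 10, *Eef1a2*, where 3.23% of all genes tested were called lower. No overlap between the groups was seen for 4 of the 10 (*Tnnt3*, *Atp2a1*, *Pvalb* and *Eef1a2*), where 13.7% of all genes tested were lower without overlap. As this contrast chose the genes, nothing is read from these counts.

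The size of the differences depended on the extreme libraries. Without rAAV8-Scramble replicate 2 the median of the 10 log2 fold changes was -0.84, *Eef1a2* was at -1.15 and *Mb* turned to 0.52. Without both that library and rAAV8-Hnf1aos1 replicate 3 the median was -0.51, *Eef1a2* was at -0.84, *Mb* at 0.99, and 0 of the 10 were called, 2 of them having an unadjusted p under 0.05.

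**Figure D3:**
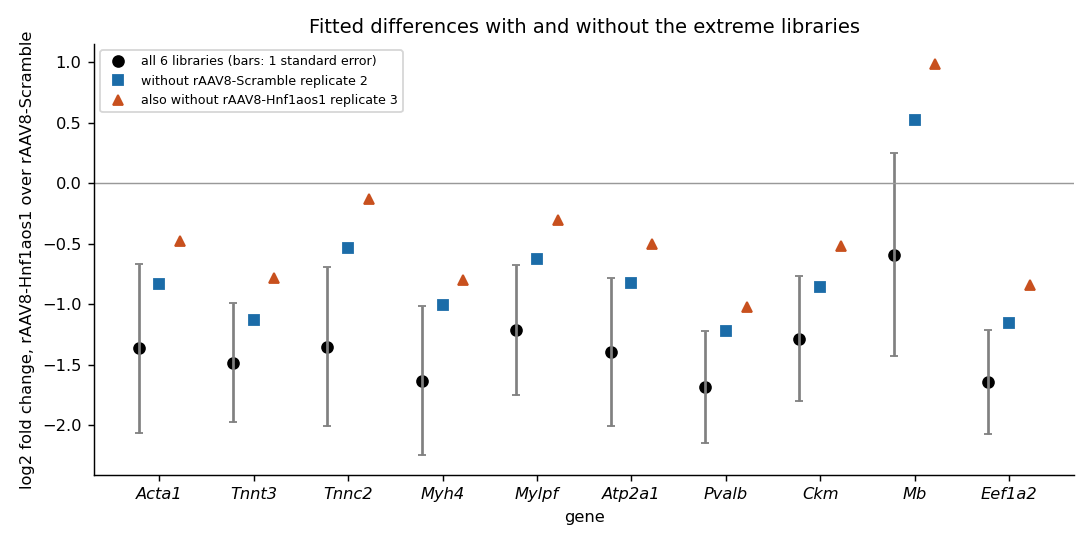
Log2 fold change of rAAV8-Hnf1aos1 over rAAV8-Scramble for the 10 genes with all 6 libraries (black, bars of 1 standard error), without rAAV8-Scramble replicate 2 (blue) and also without rAAV8-Hnf1aos1 replicate 3 (orange). The values move towards 0 as the extreme libraries are left out, and *Mb* turns to 0.52 and 0.99.

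A list of 65 other skeletal muscle genes, chosen with earlier results of these data known, was read in the same fit. Of these, 39 passed the filter on low counts, 36 had a log2 fold change below 0, with a median of -1.21, 4 were called lower (3.23% over all genes tested) and 0 higher. The 4 were *Actn3* (-1.95, SE 0.423, edgeR adjusted p = 0.0354), the alpha-actinin of fast fibres, *Tcap* (-1.82, SE 0.467, edgeR adjusted p = 0.0436), which anchors titin, *Pdlim3* (-1.62, SE 0.396, edgeR adjusted p = 0.0377), a Z-disc LIM protein, and *Ampd1* (-1.82, SE 0.477, edgeR adjusted p = 0.0453), the muscle AMP deaminase. *Actn3* was at 61.6, 149 and 100 normalized counts in rAAV8-Scramble and at 26.7, 39.9 and 13.6 in rAAV8-Hnf1aos1. In 23 of the 39 genes rAAV8-Scramble replicate 2 was highest and rAAV8-Hnf1aos1 replicate 3 lowest (2.65% over all genes tested), and in 10 the knockdown group was lower without overlap (13.7%). The number called fell to 0 without rAAV8-Scramble replicate 2 and to 0 without replicate 3, and was 2 without rAAV8-Hnf1aos1 replicate 2 and 12 without rAAV8-Scramble replicate 1.

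By role, 0 of 9 thick filament genes tested, 0 of 8 thin filament genes, 3 of 12 genes of the Z-disc, titin and cytoskeleton, 0 of 5 calcium handling genes, 1 of 4 energy genes and 0 of 1 regulator were called by edgeR. An unadjusted p under 0.05 was reached by 3 of the thick filament, 2 of the thin filament, 6 of the Z-disc, titin and cytoskeleton, 2 of the calcium handling, 4 of the energy and 0 of the regulator genes. The share of all genes at that cutoff was not computed, so nothing is read from these numbers. Which genes were called depended on the tool. DESeq2 called *Mybpc2*, *Actn3*, *Ldb3*, *Pdlim3*, *Ppp1r3a* and *Pygm* lower, and limma voom called *Actn3*, which was the gene of the list called by all 3 tools. *Ryr1*, the leading calcium gene by counts, was at 86.2, 267 and 135 against 91.5, 66.5 and 38.0 normalized counts, close to the pattern of the 10 genes. *Ttn*, titin, was at 1428, 3972 and 3655 against 2825, 1172 and 726, with rAAV8-Hnf1aos1 replicate 1 above rAAV8-Scramble replicate 1. Some genes of the list varied less between libraries than the 10, of which *Tpm1* and *Csrp3* were picked after their values were seen. *Neb*, nebulin, was at 1361 (rAAV8-Hnf1aos1 replicate 3) to 2515 normalized counts (rAAV8-Scramble replicate 2), the ends of the 10 genes with a smaller spread, *Eno3*, the muscle enolase, at 133 to 209, *Tpm1*, an alpha-tropomyosin, at 395 to 718, *Csrp3*, a muscle LIM protein, at 105 to 234, and *Fbxo32*, a ubiquitin ligase of muscle wasting, at 107 to 166.

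The mix of myosin heavy chains, which tells fibre types apart, differed between libraries. Of the counts of *Myh4* (type IIB), *Myh1* (type IIX), *Myh2* (type IIA) and *Myh7* (slow fibres and heart), *Myh4* took 77.9, 75.4 and 73.9% in rAAV8-Scramble replicates 1, 2 and 3. It took 41.4, 70.5 and 86.5% in rAAV8-Hnf1aos1 replicates 1, 2 and 3. In rAAV8-Hnf1aos1 replicate 1 *Myh1* took 38.9% (exact 95% interval 35.2 to 42.7%) and *Myh2* 13.3% (10.8 to 16.1%), more than in any other library. *Myh7* had 29, 36 and 43 counts in rAAV8-Scramble replicates 2 and 3 and rAAV8-Hnf1aos1 replicate 1. It had 0 in the 3 other libraries, which allows a share of up to 0.714% in rAAV8-Scramble replicate 1, 0.587% in rAAV8-Hnf1aos1 replicate 2 and 1.22% in rAAV8-Hnf1aos1 replicate 3. The library with the most *Myh7*, *Myh1* and *Myh2* for its *Myh4* was also the library with the largest share of *Mb*. Myosin heavy chain genes are close copies of each other, as are the actin genes, so the split of reads between them is uncertain.

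**Figure D4:**
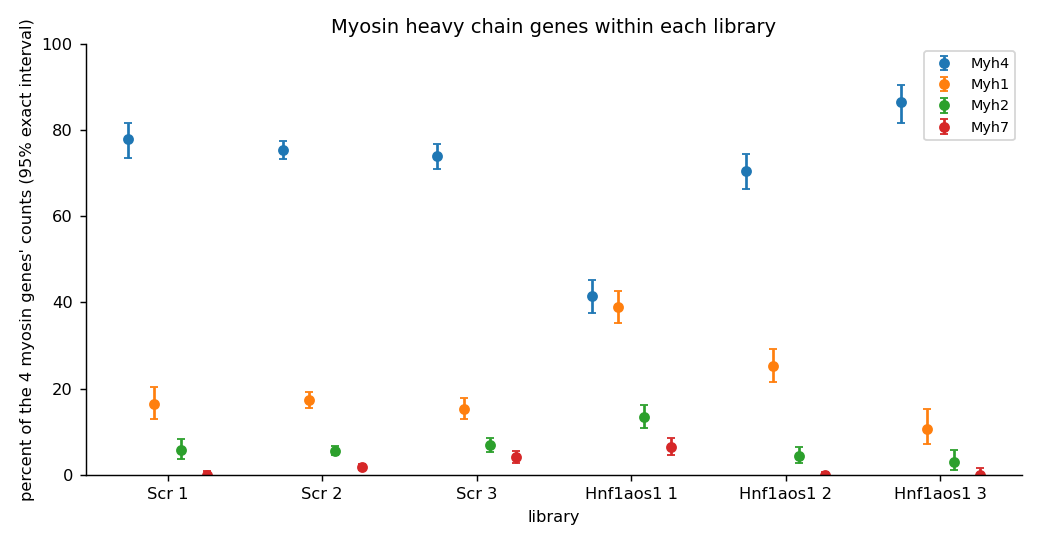
Percent of the summed raw counts of *Myh4*, *Myh1*, *Myh2* and *Myh7* that each gene took in each library, with exact 95% intervals (Scr, rAAV8-Scramble; Hnf1aos1, rAAV8-Hnf1aos1; the number is the replicate). *Myh4* took 73.9 to 77.9% in the rAAV8-Scramble libraries and 41.4, 70.5 and 86.5% in the rAAV8-Hnf1aos1 libraries.

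Markers of other tissues in which *Eef1a2*, *Pvalb* or *Mb* are made were read beside these values. Of 10 neuron genes 4 passed the filter and 0 were called by edgeR, DESeq2 or limma voom, with 0 at an unadjusted p under 0.05. The 10 neuron genes summed to 163 to 220 normalized counts in rAAV8-Scramble and 127 to 177 in rAAV8-Hnf1aos1. Most of this was *Syt1*, at 76.3 to 155 normalized counts over the libraries. The others that passed were *Tubb3*, *Rbfox3* and *Syn1*. *Gap43* was at 0 in every library, and *Snap25* and *Stmn2* had at most 3 counts. Of 9 heart muscle genes 2 passed and 1 was called lower, where 3.23% of all genes tested were. It was *Pln*, which restrains the calcium pump (-0.81, SE 0.197, edgeR adjusted p = 0.0398). The heart list summed to 453 to 542 against 303 to 468 normalized counts, and *Nppb* was at 0 in every library. *Myh6*, a myosin heavy chain of heart, had 0 counts in the same 3 libraries as *Myh7*. *Pln* was at 255, 269 and 235 normalized counts in rAAV8-Scramble and at 195, 134 and 105 in rAAV8-Hnf1aos1, so its highest and lowest libraries were those of the 10 genes, though it varied far less. *Myl4*, an atrial light chain, was at 275, 171 and 275 against 250, 190 and 181, with rAAV8-Scramble replicate 2 the lowest. Of 9 smooth muscle genes 4 passed, 0 were called by edgeR, DESeq2 or limma voom and 2 had an unadjusted p under 0.05, with sums of 334 to 420 against 225 to 305.

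Some lists of other tissues were also lower in the knockdown libraries. Of 7 adipocyte genes 3 passed and 1 was called lower, where 3.23% of all genes tested were. It was *Cfd*, adipsin (-1.16, SE 0.292, edgeR adjusted p = 0.0411). The adipocyte list summed to 157 to 256 against 101 to 138 normalized counts. Genes of squamous epithelium such as skin, a list chosen after the data were seen, summed to 2238, 3201 and 2653 normalized counts in rAAV8-Scramble replicates 1, 2 and 3 and to 945, 1191 and 932 in rAAV8-Hnf1aos1. Of these 15 genes 10 were called lower by edgeR, where 3.23% of all genes tested were called lower. DESeq2 called all 15 lower, and 1235 of all genes higher or lower. In 13 the groups did not overlap (13.7% of all genes tested were lower without overlap). The order of the 10 muscle genes, with rAAV8-Scramble replicate 2 highest and rAAV8-Hnf1aos1 replicate 3 lowest, was seen in 7 (2.65% over all genes tested). As these data chose the list, nothing is read from these counts. *Krt5*, the basal keratin, was at 267, 419 and 355 against 91.5, 118 and 127 normalized counts. The epithelial sum of rAAV8-Scramble replicate 1 (2238) was above all 3 knockdown libraries, while its sum of the 10 muscle genes (1257) was level with rAAV8-Hnf1aos1 replicates 1 and 2 (1279 and 1226) and above replicate 3 (577). Single epithelial genes did not all follow the sum, and *Krt15* was at 79 in rAAV8-Scramble replicate 1 against 114 in rAAV8-Hnf1aos1 replicate 2. The part of these other transcripts in the muscle values was not tested.

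The remaining lists held no gene that was called lower. Mesothelium genes summed to 42.1 to 68.1 against 39.9 to 57 normalized counts with 0 of 2 called, erythroid genes to 2794 to 3256 against 2632 to 3399 with 0 of 5 called, and exocrine pancreas genes to 82.5 to 102 against 102 to 161 with 0 of 1 called and 4 of 9 at 0 in every library. None of these 3 lists had a call with DESeq2 or limma voom either, and unadjusted p-values under 0.05 numbered 0, 0 and 1. Of the 7 hepatocyte genes found, 1 was called higher, *Fgb*, the fibrinogen beta chain, where 3.09% of all genes tested were called higher.

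**Figure D5:**
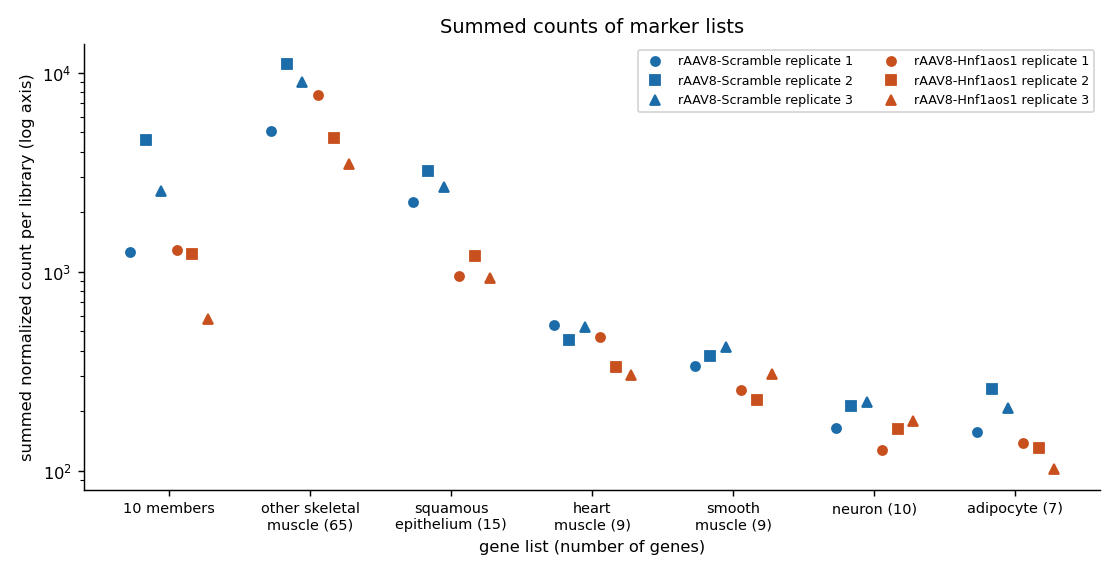
Summed normalized counts (log axis) of the 10 genes and of lists of other genes, 1 point per library, with rAAV8-Scramble in blue, rAAV8-Hnf1aos1 in orange and the replicate number given by the shape. rAAV8-Scramble replicate 1 lies level with rAAV8-Hnf1aos1 replicates 1 and 2 for the 10 genes (1257 against 1279 and 1226) and above all 3 knockdown libraries, at 2238, for squamous epithelium.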

How the data were processed

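Liver RNA of 6 mice was sequenced, 1 library per mouse, 3 per group, and groups were taken from the sample titles. The authors trimmed reads with Trimmomatic, aligned them with STAR and used featureCounts on reads that mapped uniquely to exons, and their raw counts were deposited. The methods name GRCm38 and the submitters' processing notes GRCm39, so no gene coordinates of the tables are printed. Strand setting and annotation release are not given in the sources used here. The methods describe a poly(A) kit and the labels rRNA depletion. TPM values deposited by the authors were used only to compare levels between genes. The normalized counts of the authors and their table of log2 fold changes and p-values were not used.

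The 92 ERCC rows, 1.18 to 1.52% of counts, were left out, and 40803 genes remained. Of their symbols, 37492 were also in RefSeq of GRCm38.p6. Libraries were scaled by TMM, filtered by filterByExpr and compared by quasi-likelihood tests with the group as the only term (edgeR 4.0.16, R 4.3.3), with DESeq2 1.42.0 and limma 3.58.1 as alternatives. The exact permutation test and Clopper-Pearson intervals used SciPy 1.17.1. Counts carry no molecular identifiers, so intervals and limits cover counting error only, and depth of 14704746 to 19462398 gene counts left scarce genes such as *Mb* with wide ones. The chi-square per gene between libraries of 1 group was 7.68 to 31.6, against about 1 from sampling noise, so none was a repeat of another.

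The 10 genes and all lists were chosen with earlier results of these data known. Named were these genes, *Hnf1aos1*, *Eef1a1*, the most abundant and every called gene of each muscle role, marker genes whose level was needed, and the 5 genes most like the muscle sum and most like *Eef1a2*, of which 1 is left out here. *Tpm1*, *Csrp3* and the epithelial genes were picked after their values were seen.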

Additional observations from a re-analysis of the deposited data

How the results depend on the processing

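The alternatives were DESeq2, limma voom, other library sizes, other filters on low counts, a replicate block and each library left out. Leaving out rAAV8-Scramble replicate 2 and rAAV8-Hnf1aos1 replicate 3 together, and leaving *Mb* out of the sum of the 10 genes, were added after seeing the data. The number of all genes called, 1032 with all 6 libraries, was 3394 with library sizes from the spike-ins, which moved the median of all genes by 0.20 on the log2 scale, 1902 with no filter, 103 to 1881 with 1 library left out and 1721 without both extreme libraries. With DESeq2 it was 1235, with limma voom 901 and with a minimum mean of 50 counts 817. These totals count genes called higher or lower. Of the 10 muscle genes 1 was called lower, where 3.23% of all genes tested were. The count was 3 with DESeq2 (*Tnnt3*, *Pvalb* and *Eef1a2*), 0 with limma voom (7 with an unadjusted p under 0.05), 2 with no filter, 0 with a minimum mean of 50 counts, which left 5 of them (3 with an unadjusted p under 0.05), 0 to 2 with 1 library left out and 0 without both. Other skeletal muscle genes called numbered 4, and 1 with limma voom, 9 with no filter, 1 with the minimum of 50, 2 with the replicate block, 0 to 12 with 1 library left out (0 without rAAV8-Scramble replicate 2 or 3, 12 without replicate 1) and 1 without both. Elongation factor genes called numbered 1, and 0 with library totals alone, 4 with spike-in sizes, 0 with the replicate block and 0 to 1 with 1 library left out. The median log2 fold change of the 10 genes, -1.38, was -1.44 to -1.20 over the other fits, -1.73 to -0.84 with 1 library left out and -0.51 without both. *Mb* reversed, to 0.52 without rAAV8-Scramble replicate 2 (range -1.31 to 0.52 with 1 library left out) and 0.99 without both. *Eef1a2* kept its call in 6 of the 7 other fits that tested it, the exception being limma voom. Those fits used the same libraries that chose the gene, so nothing is read from that tally. With 1 library left out the log2 fold change of *Eef1a2* was -1.88 to -1.15, and it was called only without rAAV8-Scramble replicate 1. It was not called without rAAV8-Scramble replicate 3 (-1.81) or rAAV8-Hnf1aos1 replicate 1 (-1.83) or 2 (-1.81) either, where the fold was larger than with all 6 libraries. *Hnf1aos1* missed the threshold in edgeR (adjusted p = 0.0625) and passed with DESeq2 (-0.74), limma voom (-0.77), no filter (-0.74), the replicate block (-0.77), without rAAV8-Hnf1aos1 replicate 3 (-1.01) and without both (-1.07). Its value was -1.01 to -0.60 with 1 library left out. The share of *Eef1a2* in the 10 genes, 1.60% in rAAV8-Scramble and 1.28% in rAAV8-Hnf1aos1, was 0.445% and 0.353% from TPM, 2.09% and 1.71% without *Acta1* in the sum, 2.23% and 1.77% without *Myh4*, and 1.34 to 1.78% and 1.26 to 1.29% with 1 library left out. The changes with TPM and with a gene left out follow from the sum used. The rank of *Eef1a2* in likeness, 17, was 19 with 0.5 added in place of 0.1, 2 without rAAV8-Scramble replicate 1, 66 without rAAV8-Scramble replicate 2 and 41 without rAAV8-Hnf1aos1 replicate 3, and a minimum mean of 50 counts gave no rank because *Eef1a2* lies below it. The cause of the other changes was not tested. Replicate numbers did not mark shared animals, and same-numbered libraries deviated together with a correlation of only -0.0226, 0.0231 and 0.0032, so the numbers were not used as pairs. *Eef1a2* rested on 8 to 60 counts per library, *Mylpf* on 6 to 37 and *Mb* on 3 to 29, which limits their precision.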
